A study of Mus musculus with 8 samples.

Results

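The membrane discs of rod outer segments are built from phospholipids that carry docosahexaenoic acid and polyunsaturated chains longer still. Through retinal development, 10 genes that make, activate, retain, transport or place fatty acids were followed. They were picked by gene symbol: Elovl2, Elovl4, Elovl5, Fads1, Fads2, Acsl1, Acsl6, Adipor1, Lpcat1 and Abcd2. The rule uses no measured value, but the genes were chosen with earlier results of these data known. All 10 were found among the 21828 genes listed, and each had a value with confidence bounds in all 8 libraries. The question was how these genes differ between rods and the remaining retinal cells as rods mature.

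Docosahexaenoic acid is made from shorter dietary precursors by alternating steps: the desaturases Fads2 and Fads1 insert double bonds, the elongases Elovl5 and Elovl2 lengthen the chain, and a last round of shortening takes place in peroxisomes. Elovl4 carries the elongation further, to the very-long-chain fatty acids of photoreceptor membranes, and mutation of its human counterpart causes a Stargardt-like macular dystrophy. Free fatty acids enter phospholipids only after acyl-CoA synthetases such as Acsl1 and Acsl6 have coupled them to coenzyme A. Adipor1 is needed for photoreceptors to keep their docosahexaenoic acid, Lpcat1 acylates lysophosphatidylcholine, and Abcd2 is an ATP-driven transporter that brings fatty acyl-CoAs into the peroxisome.

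RNA was sequenced from the retina of slc:ICR mice, an outbred strain. Whole retina was taken at embryonic day 15 (E15) and day 18 (E18), and retina of postnatal days 2, 5 and 8 (P2, P5 and P8) was dissociated and sorted by flow cytometry on Cd73, a surface protein of rods and their precursors, into a positive fraction (Cd73PC) and a negative fraction (Cd73NC). Retinas were pooled before the sort. Each of the 8 conditions was 1 library, so no difference has a replicate check, and no test or p-value is given. Levels are FPKM, the number of mapped fragments scaled to the length of the exons and to the size of the library, which are per length and can be compared between genes. The bounds that go with each FPKM cover counting and assignment error within a library and say nothing of variation between animals or sorts. Over the 80 values of the 10 genes the distance from the middle of the bounds to either bound had a median of 5.69% and ranged from 2.05% to 17.1%, and 29 of the values lay above their own upper bound, by at most 7.39%. A gene was counted as higher or lower where FPKM + 1 differed by at least 1.5-fold, a scale that understates the change of genes at a low FPKM, and log2 ratios are on that scale, while folds, ratios and percentages are of FPKM itself. Read totals cannot be had from FPKM. The step that 1 read adds to weakly expressed genes put the depth of the libraries at 0.965 to 1.62 times that of E18.

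The sort was checked against cell type markers. All 6 rod markers (Nrl, Nr2e3, Gnat1, Pde6b, Sag and Pdc) were higher in Cd73PC than in Cd73NC at each stage, and their summed FPKM was 4934, 8268 and 10715 in Cd73PC of P2, P5 and P8 against 80.3, 1011 and 729 in Cd73NC. Cd73NC therefore held rod transcripts, and more of them in relation to Cd73PC at P5, where the level of a rod marker in Cd73NC was 7.34% to 21.1% of that in Cd73PC, than at P2 (0.430% to 4.74%) or P8 (5.13% to 7.87%). Müller glia markers summed to 610, 514 and 415 in Cd73PC of P2, P5 and P8 and 1310, 1799 and 1397 in Cd73NC, with 5, 6 and 7 of 8 lower in Cd73PC, and bipolar cell markers to 49.3, 80.4 and 232 and 187, 434 and 2031, with 2, 5 and 6 of 6 lower. At P2, 2 of 6 bipolar cell markers, Trpm1 and Cabp5, were higher in Cd73PC. All 6 progenitor markers were lower in Cd73PC at each stage, and their sums were 154, 35.2 and 3.75 against 558, 127 and 18.0. At P2 all 5 microglia markers were higher in Cd73PC (summed FPKM 35.5 against 6.12), as were 3 of 6 retinal pigment epithelium markers (24.2 against 1.03, with Rpe65 listed at 0 in both). Pigment epithelium markers summed to 27.0 against 17.5 at P5 and 58.5 against 33.7 at P8, with 2 of 6 higher at each. Microglia markers summed to 28.8 against 43.1 at P5 and 98.5 against 128 at P8, with none higher. Cone markers summed to 129, 110 and 147 in Cd73PC of P2, P5 and P8 and 57.9, 145 and 121 in Cd73NC, so both fractions held cone transcripts. Erythroid markers summed to 40.2, 1363 and 2764 in Cd73PC and 133, 2009 and 7007 in Cd73NC. Amacrine cell, ganglion cell and endothelium markers were also looked at and are not given here. In such bulk samples, fewer cells of a type and less RNA per cell cannot be told apart.

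The 10 genes fell into the same sets at every stage, with 1 exception. Elovl2, Elovl4, Acsl1, Acsl6 and Adipor1 were higher in Cd73PC at P2, P5 and P8, Elovl5, Fads1, Fads2 and Abcd2 were lower in Cd73PC at P2, P5 and P8, and Lpcat1 was higher at P2 and P8 but level at P5. That is 6 higher and 4 lower of 10 at P2, where 8.56% of all genes were higher and 14.4% lower. At P5 it is 5 higher and 4 lower, beside 7.02% and 15.5% of all genes, and at P8 6 higher and 4 lower, beside 7.54% and 18.6%. The 5 genes higher at all 3 stages compare with 3.51% of all genes, and the 4 lower at all 3 with 7.83%. All genes include many near an FPKM of 0, which cannot pass 1.5-fold on FPKM + 1 and so lower these shares, here and below. FPKM was at least 1 in 11153 to 12414 genes a library. With the 10 genes also chosen knowing earlier results of these data, the counts are a description only. The median log2 ratio of the 10 genes was 0.88, 0.46 and 0.97 at P2, P5 and P8, against 0, 0 and -0.02 over all genes. Over genes with FPKM of at least 10 in 1 library or more it was -0.12, -0.15 and -0.19. The median of the 10 genes stands for neither set, since they lie on both sides of it. The bounds of the paired fractions did not overlap for any of the 10 genes at any stage, with Lpcat1 at P5 the exception.

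**Figure D1:**
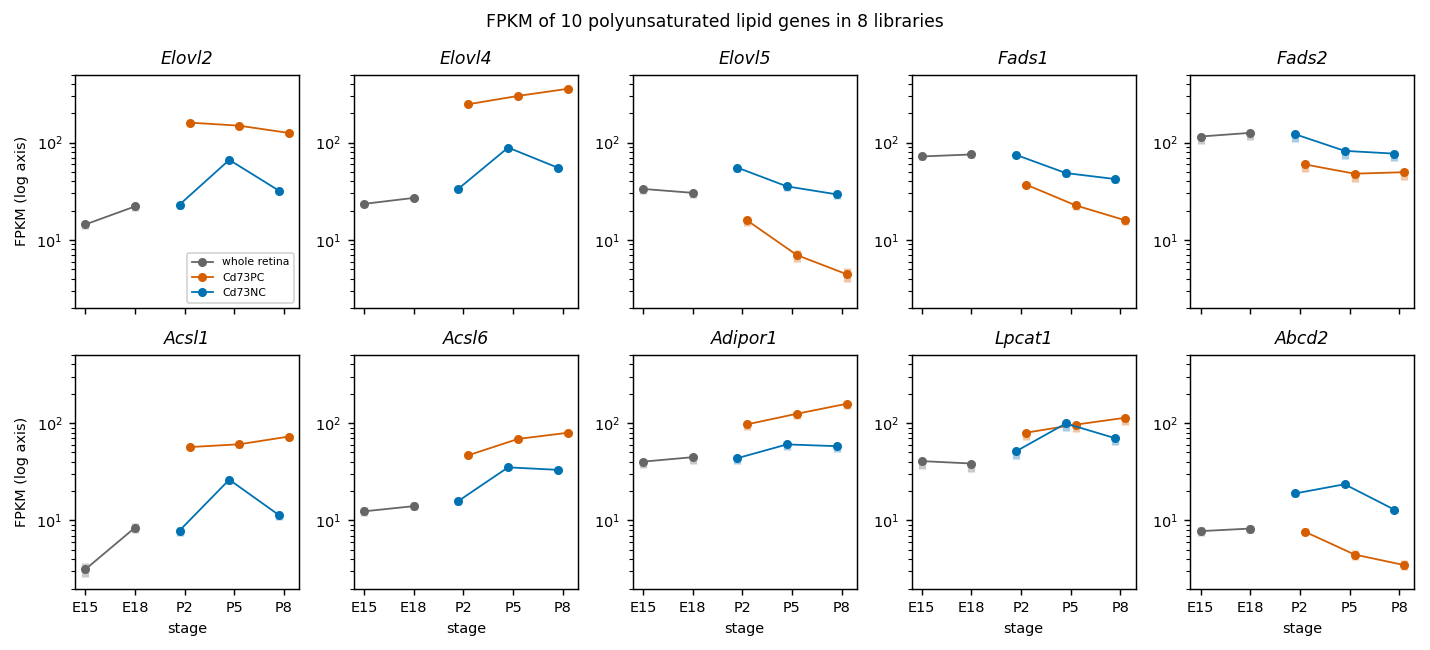
FPKM (log axis) of each of the 10 genes against stage, 1 panel a gene, with whole retina in grey, Cd73PC in orange and Cd73NC in blue; each point is 1 library, pale bars are the bounds within that library, and lines join libraries of a kind. Elovl4 reached 357 in Cd73PC at P8 while Elovl5 came down to 4.45 in the same library.

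Among the elongases, Elovl4 (chr9:83672299-83699912 in mm9, minus strand) had the highest level of the 10 genes in all 3 Cd73PC libraries. Its FPKM was 23.5 at E15 and 27.0 at E18, then 33.6, 88.9 and 55.3 in Cd73NC of P2, P5 and P8 and 248, 302 and 357 in Cd73PC. All 3 Cd73PC libraries stood above the other 5. The ratio of Cd73PC to Cd73NC was 7.38, 3.39 and 6.46 at P2, P5 and P8, and over all 8 libraries only E15 and E18 had bounds that overlapped. Elovl2 (chr13:41277751-41315772, minus strand), which extends the chain late on the way to docosahexaenoic acid, had its highest FPKM in Cd73PC at P2. It measured 14.4 at E15, 22.1 at E18, 23.1, 66.4 and 32.1 in Cd73NC of P2, P5 and P8 and 160, 149 and 126 in Cd73PC. Its ratio of Cd73PC to Cd73NC was 6.96, 2.24 and 3.91 at the 3 stages. The 3 Cd73PC libraries were again the highest, but while Elovl4 was highest at P8, Elovl2 was highest at P2 and the ratio of Elovl4 to Elovl2 within Cd73PC was 1.54, 2.02 and 2.84 at P2, P5 and P8.

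Elovl5 (chr9:77765172-77832326, plus strand), the elongase of the earlier, shorter intermediates, had the reverse pattern. Its FPKM was 33.4 at E15 and 30.5 at E18, then 55.4, 35.5 and 29.4 in Cd73NC of P2, P5 and P8 and 15.8, 6.99 and 4.45 in Cd73PC. The 3 Cd73PC libraries were the lowest of the 8, and Cd73NC exceeded Cd73PC 3.49-fold at P2, 5.08-fold at P5 and 6.61-fold at P8. The bounds in Cd73PC at P8 were 3.68 to 5.20. Elovl5 and Elovl4 lie on the same chromosome, 5840 kb apart, and the ratio of Elovl4 to Elovl5 was 0.702 at E15, 0.887 at E18, 0.607, 2.50 and 1.88 in Cd73NC of P2, P5 and P8 and 15.6, 43.1 and 80.1 in Cd73PC. The ratio of Elovl2 to Elovl5 was below 1 in E15 (0.431), E18 (0.724) and P2 Cd73NC (0.417), and it was 10.1, 21.3 and 28.2 in Cd73PC at P2, P5 and P8.

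Within the Elovl family of 7 genes the summed FPKM was 95.1 at E15 and 98.9 at E18, and it was 127, 205 and 131 in Cd73NC of P2, P5 and P8 and 435, 464 and 494 in Cd73PC. Elovl2 and Elovl4 together made up 39.9% of it at E15, 49.6% at E18, 44.4%, 75.7% and 66.7% in Cd73NC of P2, P5 and P8 and 93.8%, 97.2% and 97.7% in Cd73PC. Elovl5 alone was 43.4% of the family in P2 Cd73NC and 0.902% in P8 Cd73PC. Nearly all elongase transcript in Cd73PC was thus of the late-acting pair, and the whole retina before birth and P2 Cd73NC held a mixture.

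**Figure D2:**
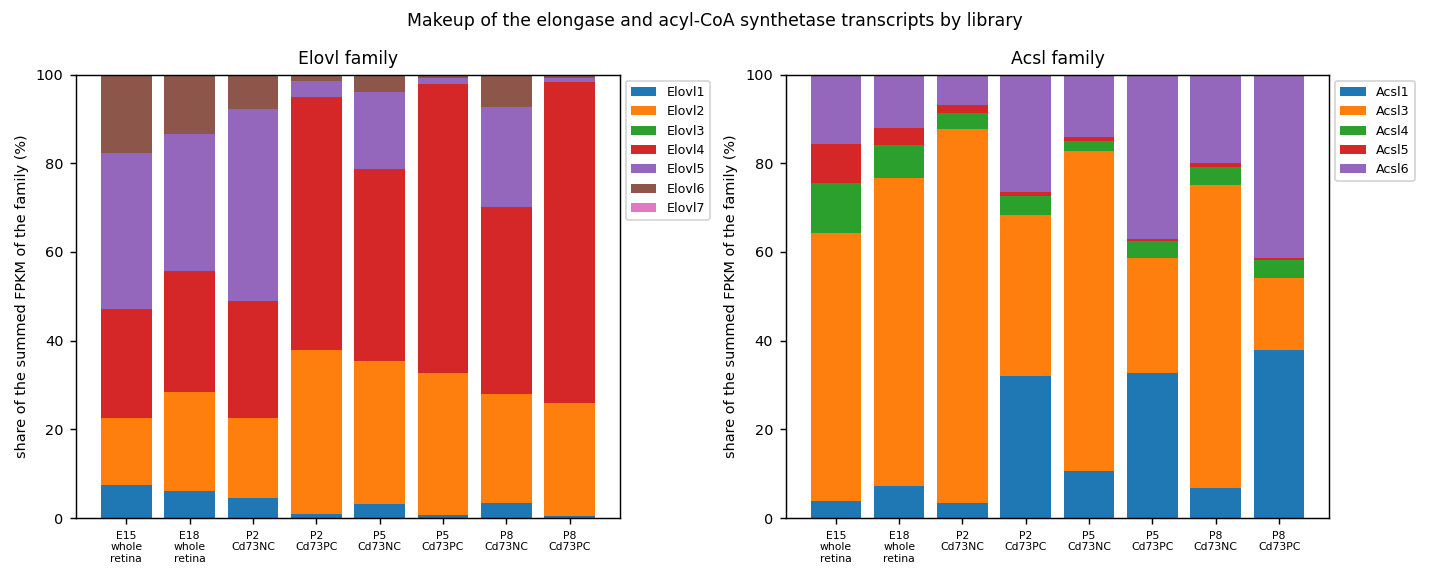
Share of the summed FPKM (%) held by each Elovl gene (left) and each Acsl gene (right), stacked to 100 for each of the 8 libraries. Elovl2 and Elovl4 fill 93.8% to 97.7% of the elongase bar in Cd73PC, and Acsl1 and Acsl6 58.5% to 79.3% of the synthetase bar.

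The promoters of genes that moved together and apart are given for reference, from RefSeq on GRCm38.p6, each from 250 bases before the start site to 50 after it and read 5′ to 3′ along the gene. Of the 10 genes, 8 were in the promoter table with 13 start sites, and Fads1 and Abcd2 were not. The windows shown are Elovl4 (chr9:83806256-83806555, minus strand) and the Elovl2 start site that holds a match (chr13:41220113-41220412, minus strand) for the genes higher in Cd73PC, Elovl5 (chr9:77917115-77917414, plus strand) for those lower, and Lpcat1 (chr13:73466981-73467280, plus strand), which was not steadily either. Capitals mark matches to TAATCC, the core recognised by the photoreceptor factors Crx and Otx2, or TGCTGA, part of the site recognised by the rod factor Nrl, each searched on both strands, so that GGATTA in the Lpcat1 window is TAATCC read from the other strand.
Elovl4: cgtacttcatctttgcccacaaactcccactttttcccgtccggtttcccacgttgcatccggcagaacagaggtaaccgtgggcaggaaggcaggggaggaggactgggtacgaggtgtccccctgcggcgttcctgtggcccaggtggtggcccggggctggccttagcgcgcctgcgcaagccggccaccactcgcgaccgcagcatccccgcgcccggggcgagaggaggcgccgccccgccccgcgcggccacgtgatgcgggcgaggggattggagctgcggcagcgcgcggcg
Elovl2: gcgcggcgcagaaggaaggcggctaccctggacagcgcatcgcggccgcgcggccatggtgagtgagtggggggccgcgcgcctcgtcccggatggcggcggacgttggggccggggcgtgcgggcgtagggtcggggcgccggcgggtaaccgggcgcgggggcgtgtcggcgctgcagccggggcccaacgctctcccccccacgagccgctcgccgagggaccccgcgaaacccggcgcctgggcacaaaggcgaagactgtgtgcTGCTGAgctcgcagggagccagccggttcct
Elovl5: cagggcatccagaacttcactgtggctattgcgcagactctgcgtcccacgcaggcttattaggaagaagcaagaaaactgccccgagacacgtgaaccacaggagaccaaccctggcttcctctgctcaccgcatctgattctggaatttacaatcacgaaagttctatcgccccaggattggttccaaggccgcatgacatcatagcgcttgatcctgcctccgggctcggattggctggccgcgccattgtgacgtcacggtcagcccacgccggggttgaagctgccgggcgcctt
Lpcat1: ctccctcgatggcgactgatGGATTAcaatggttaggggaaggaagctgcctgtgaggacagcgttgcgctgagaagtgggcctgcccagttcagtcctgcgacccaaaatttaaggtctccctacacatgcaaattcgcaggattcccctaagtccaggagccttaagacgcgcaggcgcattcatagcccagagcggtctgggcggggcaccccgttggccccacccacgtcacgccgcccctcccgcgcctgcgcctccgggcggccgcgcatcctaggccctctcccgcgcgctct

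TAATCC occurred in 1 of the 13 windows, on the minus strand of the Lpcat1 window with its first base at -230 (the start site being +1), and in 7.06% of 32851 mouse promoters of this length. TGCTGA occurred in 2 of the 13, in the Elovl2 window shown, from base +20, and on the minus strand of start site 1 of Acsl6 at +7, and in 19.5% of all promoters. The windows differed in base composition: G and C made up 71% of the Elovl4 window, 76.7% of that of Elovl2, 64% of that of Lpcat1 and 57.7% of that of Elovl5, with a median of 52.7% over all promoters. These letter matches are a description of a short window and no measure of binding.

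Fads1 and Fads2, neighbours on chromosome 19 that lie 81.4 kb apart, were both lower in Cd73PC. Fads2 (chr19:10138654-10175993, minus strand), the desaturase that opens the pathway, had an FPKM of 115 at E15 and 126 at E18, then 122, 82.2 and 77.0 in Cd73NC of P2, P5 and P8 and 59.7, 47.9 and 49.6 in Cd73PC. Fads1 (chr19:10257378-10271362, plus strand), which acts after the Elovl5 step, had an FPKM of 72.1 at E15 and 75.5 at E18, then 74.8, 48.6 and 42.2 in Cd73NC of P2, P5 and P8 and 37.0, 22.6 and 15.9 in Cd73PC. For both genes the 3 Cd73PC libraries were the lowest, and E15, P2 Cd73NC and E18 formed the top, in ascending order, with overlapping bounds between neighbours. The ratio of Cd73NC to Cd73PC moved apart for the pair, from 2.02 at P2 to 2.15 and 2.65 for Fads1, and from 2.04 to 1.72 and 1.55 for Fads2, so that Fads2 at P8 was close to the 1.5-fold threshold (log2 ratio -0.62), and short of it with upper-quartile (-0.52) or quantile scaling (-0.53), which leaves 3 genes lower at P8 and at all 3 stages. Fads2 exceeded Fads1 1.60 to 1.83-fold in E15, E18 and the 3 Cd73NC libraries, and 1.61, 2.12 and 3.12-fold in Cd73PC at P2, P5 and P8.

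Acsl1 (chr8:47556396-47621404, plus strand), a long-chain acyl-CoA synthetase, had the widest range of the 10 genes, 23.2-fold between the lowest and the highest library. Its FPKM was 3.14 at E15, 8.44 at E18, 7.89, 26.3 and 11.4 in Cd73NC of P2, P5 and P8 and 56.8, 60.6 and 72.8 in Cd73PC. The ratios of Cd73PC to Cd73NC, 7.19, 2.31 and 6.40, followed those of Elovl4 in having their lowest value at P5. Acsl6 (chr11:54117326-54175041, plus strand), a synthetase with a preference for docosahexaenoic acid, differed less: FPKM was 12.4 at E15, 14.0 at E18, 15.9, 35.1 and 33.1 in Cd73NC of P2, P5 and P8 and 46.8, 68.8 and 79.5 in Cd73PC, which gives ratios of 2.95, 1.96 and 2.40. In both genes every Cd73PC library was above every other library. The ratio of Acsl6 to Acsl1 was 3.95 at E15, 1.66 at E18, 1.34 to 2.91 in Cd73NC, and 0.824, 1.14 and 1.09 in Cd73PC, where the synthetases stood at about the same level. Of the summed FPKM of 5 Acsl genes, Acsl1 and Acsl6 held 19.5% at E15, 19.2% at E18, 10.3%, 24.6% and 26.7% in Cd73NC of P2, P5 and P8 and 58.5%, 70.0% and 79.3% in Cd73PC. Most of the remainder was Acsl3, a synthetase associated with lipid droplets and the endoplasmic reticulum, with 84.2% in P2 Cd73NC and 16.2% in P8 Cd73PC.

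Adipor1 (chr1:136312044-136328918, plus strand), a seven-pass membrane protein, was higher in Cd73PC at all 3 stages by similar ratios. Its FPKM was 40.2 at E15, 44.7 at E18, 43.6, 60.4 and 58.0 in Cd73NC of P2, P5 and P8 and 97.2, 125 and 158 in Cd73PC, with ratios of 2.23, 2.06 and 2.72. The 3 Cd73PC libraries did not overlap with the other 5. Adipor1 exceeded its relative Adipor2 1.42-fold at E15, 1.38-fold at E18, 1.42 to 2.32-fold in Cd73NC and 2.78, 3.47 and 4.06-fold in Cd73PC.

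Lpcat1 (chr13:73604831-73651986, plus strand), an acyltransferase whose loss causes photoreceptor degeneration in mice, was the gene without a steady difference. Its FPKM was 40.7 at E15, 38.5 at E18, 51.4, 99.1 and 69.9 in Cd73NC of P2, P5 and P8 and 79.8, 96.5 and 114 in Cd73PC. The ratio of Cd73PC to Cd73NC was 1.55, 0.974 and 1.62 at P2, P5 and P8, so that both calls lay just past the threshold, and at P5 the bounds of Cd73NC (83.7 to 93.1) and Cd73PC (81.4 to 90.7) overlapped, with both FPKM values above their own upper bound. The Cd73NC library with the highest Lpcat1 level, P5, was also the one in which rod markers stood highest in relation to Cd73PC. Müller glia markers in Cd73NC had their highest sum at P5 as well (1310, 1799 and 1397 at P2, P5 and P8). The part of either cell type in the Lpcat1 level was not tested. Abcd2 (chr15:90976302-91022238, minus strand) was lower in Cd73PC. Its FPKM was 7.77 at E15, 8.26 at E18, 18.9, 23.6 and 12.9 in Cd73NC of P2, P5 and P8 and 7.66, 4.47 and 3.48 in Cd73PC. Cd73NC exceeded Cd73PC 2.47, 5.27 and 3.71-fold, and the 3 Cd73NC libraries were above all the others.

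**Figure D3:**
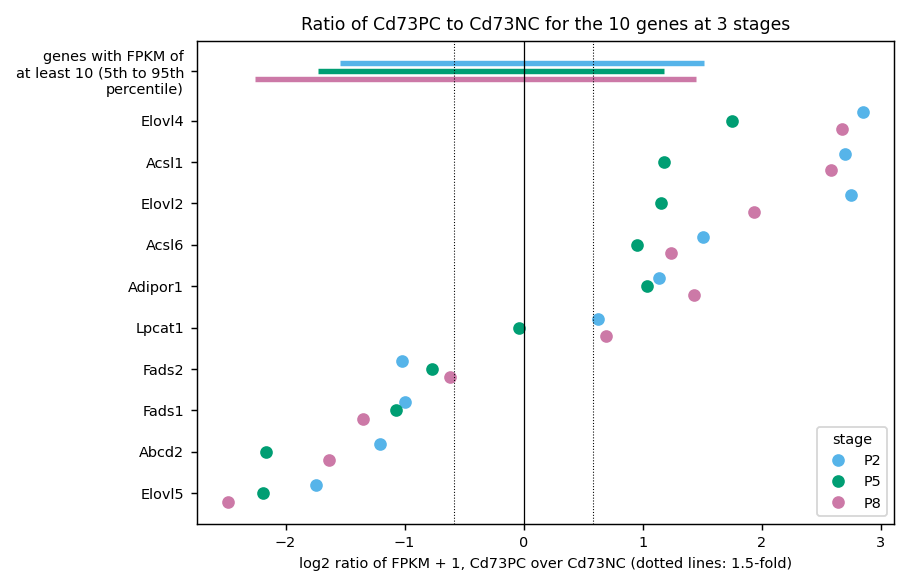
Log2 ratio of FPKM + 1 in Cd73PC over Cd73NC (horizontal axis) for each of the 10 genes at P2, P5 and P8, with the 5th to 95th percentile of genes with FPKM of at least 10 as bars at the top and the 1.5-fold threshold dotted; each point compares 1 library with 1 library. Elovl4, Acsl1 and Elovl2 lie farthest to the right, and Elovl5 and Abcd2 farthest to the left.

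Averaged over the 3 stages, the log2 ratio of Cd73PC to Cd73NC was 2.42 for Elovl4, 2.15 for Acsl1, 1.95 for Elovl2, 1.23 for Acsl6, 1.20 for Adipor1 and 0.43 for Lpcat1, and -0.80 for Fads2, -1.14 for Fads1, -1.67 for Abcd2 and -2.14 for Elovl5. Among genes with FPKM of at least 10 in 1 library or more, 90% of log2 ratios lay between -1.54 and 1.51 at P2, between -1.73 and 1.18 at P5 and between -2.26 and 1.44 at P8. Elovl4 (2.85, 1.75 and 2.67) and Acsl1 (2.70, 1.18 and 2.58) were beyond the upper end at all 3 stages, Acsl1 at P5 by less than the rounding shown, and Elovl2 was beyond it at P2 (2.75) and P8 (1.94). Elovl5 was beyond the lower end at all 3 stages (-1.74, -2.19 and -2.48) and Abcd2 at P5 (-2.17). All 5 genes higher in Cd73PC at every stage had their smallest log2 ratio at P5 (1.75 for Elovl4, 1.18 for Acsl1, 1.15 for Elovl2, 0.95 for Acsl6 and 1.03 for Adipor1), as did Lpcat1 (-0.04). Without the P5 fractions, 6 genes were higher and 4 lower at both remaining stages, beside 4.27% and 9.03% of all genes.

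As a percentage of the Cd73PC level, Elovl2, Elovl4, Acsl1, Acsl6, Adipor1 and Lpcat1 stood higher in Cd73NC than the rod markers did. In Cd73NC, Elovl4 stood at 13.6%, 29.5% and 15.5% of its Cd73PC level at P2, P5 and P8, Elovl2 at 14.4%, 44.6% and 25.5%, and Acsl1 at 13.9%, 43.3% and 15.6%. The other 3 stood higher, Acsl6 at 33.9% to 51.1%, Adipor1 at 36.7% to 48.5% and Lpcat1 at 61.6% to 103%. At every stage each of these 6 genes was above the highest of the 6 rod markers, which was 4.74%, 21.1% and 7.87% at P2, P5 and P8. In the other direction, Cd73PC held Elovl5 at 28.6%, 19.7% and 15.1% of its Cd73NC level, Abcd2 at 40.4%, 19.0% and 26.9%, Fads1 at 49.5%, 46.6% and 37.7%, and Fads2 at 48.9%, 58.3% and 64.5%. The 8 Müller glia markers had medians of 45.0%, 27.9% and 20.8% on this scale, with a wide spread of 20.9% to 724% at P2, 16.3% to 165% at P5 and 12.6% to 149% at P8, and Clu above 100% at all stages. The part of each of these cell types in the levels of the 10 genes was not tested.

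**Figure D4:**
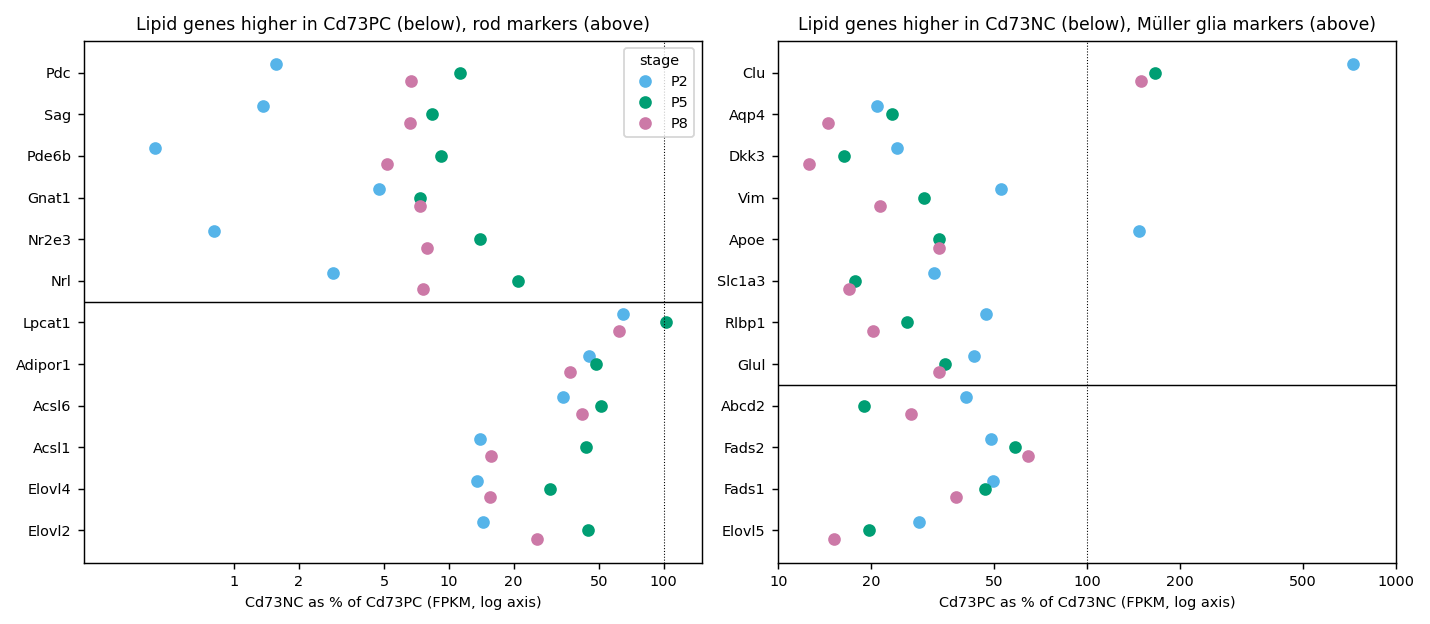
Level in the opposite fraction as a percentage (log axis), with points for P2, P5 and P8. On the left is Cd73NC as % of Cd73PC for the 6 lipid genes that were higher in Cd73PC and 6 rod markers. Of these lipid genes, Lpcat1 was level at P5. On the right is Cd73PC as % of Cd73NC for the 4 lipid genes that were lower and 8 Müller glia markers. The 6 lipid genes lie to the right of the rod markers of the same stage, whose highest values are 4.74%, 21.1% and 7.87% at P2, P5 and P8.

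Change with time was next followed within each kind of sample. Between E15 and E18 the genes were nearly level: 1 of 10 was higher, Acsl1 with a 2.69-fold difference, and none was lower, beside 4.61% and 2.09% of all genes, and Elovl2, with 1.53-fold in FPKM, lay just short of the threshold on the scale of FPKM + 1 (log2 0.58). P2 Cd73PC exceeded E18 whole retina in 6 genes, Elovl4 by 9.16-fold, Elovl2 by 7.27-fold, Acsl1 by 6.73-fold, Acsl6 by 3.33-fold, Adipor1 by 2.18-fold and Lpcat1 by 2.07-fold. It was below E18 in 3, with ratios of 0.520 for Elovl5, 0.490 for Fads1 and 0.474 for Fads2, beside 8.78% of all genes higher and 18.3% lower. P2 Cd73NC was higher than E18 for Elovl5 (1.82-fold) and Abcd2 (2.29-fold) and lower for none, beside 3.2% and 8.2%. These comparisons set whole tissue against sorted cells, so that stage and preparation cannot be told apart.

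Within Cd73PC no gene was past the threshold upward between neighbouring stages, although Elovl4, Acsl1, Acsl6, Adipor1 and Lpcat1 had a higher FPKM at each later stage. From P2 to P5 none of the 10 was higher and 3 were lower, Elovl5 with a ratio of 0.441, Abcd2 with 0.583 and Fads1 with 0.612, beside 3.36% of all genes higher and 8.57% lower. From P5 to P8 none was past the threshold in either direction, beside 3.31% and 4.78%, and the nearest were Elovl5 (log2 -0.55) and Fads1 (-0.48). Within Cd73NC the highest levels of Elovl2, Elovl4, Acsl1, Acsl6, Adipor1, Lpcat1 and Abcd2 were those of P5. From P2 to P5, 5 were higher, Acsl1 by 3.33-fold, Elovl2 by 2.88-fold, Elovl4 by 2.65-fold, Acsl6 by 2.21-fold and Lpcat1 by 1.93-fold, and 2 were lower, Elovl5 (ratio 0.641) and Fads1 (0.651), beside 7.93% and 9.52% of all genes. From P5 to P8 none was higher and 4 were lower, Acsl1 (0.433), Elovl2 (0.483), Abcd2 (0.549) and Elovl4 (0.622), beside 8.47% and 7.78%. Over the same libraries the summed rod markers in Cd73NC were 80.3, 1011 and 729. The part of these rod transcripts in the higher P5 levels was not tested.

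Across the 8 libraries the genes that were higher in Cd73PC followed each other closely on the log2(FPKM + 1) scale, with Pearson's r of 0.99 for Elovl2 and Acsl1 and 0.98 for Elovl2 and Elovl4 and for Elovl4 and Adipor1. Fads1 correlated with Fads2 (r = 0.96) and Elovl5 (r = 0.94), and Elovl4 ran opposite to Fads2 (r = -0.97). Lpcat1 and Abcd2 were only weakly related (r = -0.22). These values describe 8 points that share stage, fraction and library, and they carry no p. Among 8802 genes with FPKM of at least 10 in 1 library or more, the genes with the pattern most like each of the 10 were, by r over the same 8 libraries, Vopp1 (0.997), Dnaja4 (0.996) and Slc25a33 (0.995) for Elovl4, Impg2 (0.994), Egflam (0.993) and Slc25a33 (0.993) for Acsl1, and Tmem92-ps (0.997, a pseudogene whose short reads may be shared with a related gene), 1110032A03Rik (0.996) and Chgb (0.995) for Elovl2. For Acsl6 they were Cdhr1 (0.997), Yipf3 (0.996) and Cngb1 (0.996), and for Adipor1 the genes given are Rgs9 (0.996) and Ipmk (0.996). Several of these are photoreceptor genes, among them Cngb1, a subunit of the rod cyclic nucleotide-gated channel, and Rgs9, which speeds recovery of the light response. For Fads1 the nearest were Hes1 (0.998), a Notch target of progenitors and glia, Gjc1 (0.997) and Efemp2 (0.995), and for Fads2 Prmt3 (0.994), Srgap3 (0.989) and Fgf9 (0.988). Elovl5 was nearest to Mpzl1 (0.998), Cnn3 (0.992) and Ash2l (0.990), Abcd2 to Pcid2 (0.990), Slc39a9 (0.983) and Qsox1 (0.983), and Lpcat1 to Krt18 (0.986), Large (0.983) and Npc1 (0.979). Pearson's r takes no account of the size of a change. On the log2 scale Pcid2 ranged by 0.49 over the 8 libraries and Abcd2 by 2.45, while Cngb1 ranged by 8.37 and Acsl6 by 2.59.

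The neighbouring steps of lipid metabolism were taken as 10 lists with 82 genes, all of them measured. At P2, P5 and P8, 16, 13 and 16 of them were higher in Cd73PC (19.5%, 15.9% and 19.5%, beside 8.56%, 7.02% and 7.54% of all genes) and 20, 24 and 19 lower (24.4%, 29.3% and 23.2%, beside 14.4%, 15.5% and 18.6%), with median log2 ratios of 0.02, -0.09 and -0.18. At all 3 stages 7 were higher and 11 lower (8.54% and 13.4%, beside 3.51% and 7.83%). The shares of all genes are lowered by genes near an FPKM of 0, so no excess in the lists is read from them. The 5 remaining desaturases were lower or level: 4, 4 and 3 were lower at P2, P5 and P8, and none was higher. Scd2, which makes monounsaturated fatty acids, had an FPKM of 305 at E15 and 304 at E18, then 372, 349 and 280 in Cd73NC of P2, P5 and P8 and 95.1, 64.3 and 56.5 in Cd73PC. Its relative Scd1 was lower too, with Cd73NC exceeding Cd73PC 3.35, 4.53 and 4.08-fold, as was Fads3 (1.77, 2.34 and 3.17-fold). Fads1, Fads2, Fads3, Scd1 and Scd2 summed to 584, 493 and 414 in Cd73NC of P2, P5 and P8 and 198, 139 and 126 in Cd73PC, so that the desaturase transcripts as a family were at a lower level in Cd73PC.

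Of 10 further genes of chain elongation, 2, 2 and 1 were higher and 2, 3 and 3 lower at the 3 stages. Elovl6, which elongates saturated fatty acids, was lower at each (9.69, 7.65 and 9.25 in Cd73NC of P2, P5 and P8 and 5.77, 2.88 and 3.88 in Cd73PC), and so was Hsd17b12, a ketoacyl-CoA reductase of the elongation cycle (90.2 and 54.7, 57.3 and 31.3, 46.8 and 24.7). Elovl1 had an FPKM of 5.65, 6.30 and 4.55 in Cd73NC of P2, P5 and P8 and 4.30, 2.92 and 2.57 in Cd73PC. Hsd17b12 and Elovl6 were thus lower in Cd73PC at each stage, where Elovl2 and Elovl4 were higher, and Elovl1 was lower at P5 and P8. No other gene of this list was counted as lower at any stage. Tecr was higher in Cd73PC at P5 (193 against 118), short of the threshold at P2 (160 against 113) and level at P8 (170 against 164). Ptpla was higher at P2 (21.1 against 12.1) and P5 (22.9 against 13.7) and just short of the threshold at P8 (23.5 against 16.1). Of 6 further acyl-CoA synthetases 2 were lower at each stage and none higher. Acsl3 measured 193, 180 and 114 in Cd73NC of P2, P5 and P8 and 64.1, 48.0 and 31.1 in Cd73PC, and Acsl5 was 2.75, 3.08 and 2.29-fold higher in Cd73NC. Acsl4, which prefers arachidonic acid, was level (8.29 and 7.89, 5.59 and 6.73, 6.64 and 7.84).

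The 12 further lysophospholipid acyltransferases split, with 5, 2 and 3 higher and 4, 5 and 6 lower. Agpat3, an enzyme known to place docosahexaenoic acid into phospholipid precursors, had an FPKM of 22.4 at E15 and 36 at E18, then 41.2, 152 and 66.0 in Cd73NC of P2, P5 and P8 and 208, 273 and 271 in Cd73PC. As for Elovl4 and Acsl1, its highest Cd73NC value was at P5, and in Cd73PC it stood above Lpcat1, whose ratio to Agpat3 was 0.383, 0.353 and 0.419 there against 1.82 at E15 and 1.07 at E18. Lpcat2 was higher in Cd73PC as well (18.8 against 4.02 at P2, 21.5 against 8.25 at P5, 26.6 against 5.78 at P8), while Agpat4 (6.40, 3.84 and 7.23 against 1.60, 0.770 and 0.828) and Mboat2 (17.7, 14.8 and 16.9 against 6.88, 4.86 and 3.44) were higher in Cd73NC.

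The 3 genes of phospholipid flipping and transport across photoreceptor membranes were all higher in Cd73PC at P2 and P8, and 2 of 3 at P5. Atp8a2, a flippase of phosphatidylserine and phosphatidylethanolamine, measured 11, 30.0 and 43.0 in Cd73PC of P2, P5 and P8 and 1.14, 4.42 and 7.35 in Cd73NC. Abca4, which clears retinoid-bound phosphatidylethanolamine, measured 7.45 and 2.14, 43.1 and 16.7, and 108 and 15.0. Both levels in Cd73PC were highest at P8, whereas Elovl2 was already at its highest at P2 (160, 149 and 126 at P2, P5 and P8). The steps of Elovl2 between neighbouring stages were short of 1.5-fold. Of the regulators, Ppara and Ppard, nuclear receptors for fatty acids, were higher in Cd73PC at all stages (1.77, 3.60 and 6.31 against 0.0821, 0.748 and 0.407 for Ppara; 16.5, 30.1 and 34.3 against 7.87, 15.2 and 15.2 for Ppard), among 10 genes of which 2, 3 and 3 were higher and 2, 2 and 0 lower. Of 4 genes of fatty acid release and lipid peroxide repair, Gpx4, which reduces peroxidised phospholipids, was higher (471, 929 and 867 against 247, 229 and 232) and Pnpla2, the adipose triglyceride lipase, lower (3.91, 3.75 and 3.13 against 6.62, 9.62 and 6.93).

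No gene of the lists for peroxisomal beta-oxidation (8 genes), uptake and binding of fatty acids (9) or phospholipid head groups (15) differed the same way at all 3 stages. Peroxisomal genes gave 2, 0 and 0 higher and 1, 2 and 1 lower, uptake genes 1, 0 and 2 higher and 2, 2 and 1 lower, and head group genes 0, 3 and 3 higher and 2, 2 and 1 lower. Mfsd2a, the carrier of docosahexaenoic acid as lysophosphatidylcholine, was weakly represented in both fractions (3.73, 2.72 and 1.13 in Cd73NC of P2, P5 and P8 and 1.14, 1.19 and 0.750 in Cd73PC). Abcd3, a peroxisomal transporter related to Abcd2, had a ratio to Abcd2 of 2.05 at E15, 1.68 at E18, 0.888 to 1.83 in Cd73NC and 2.79, 3.46 and 4.51 in Cd73PC.

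**Figure D5:**
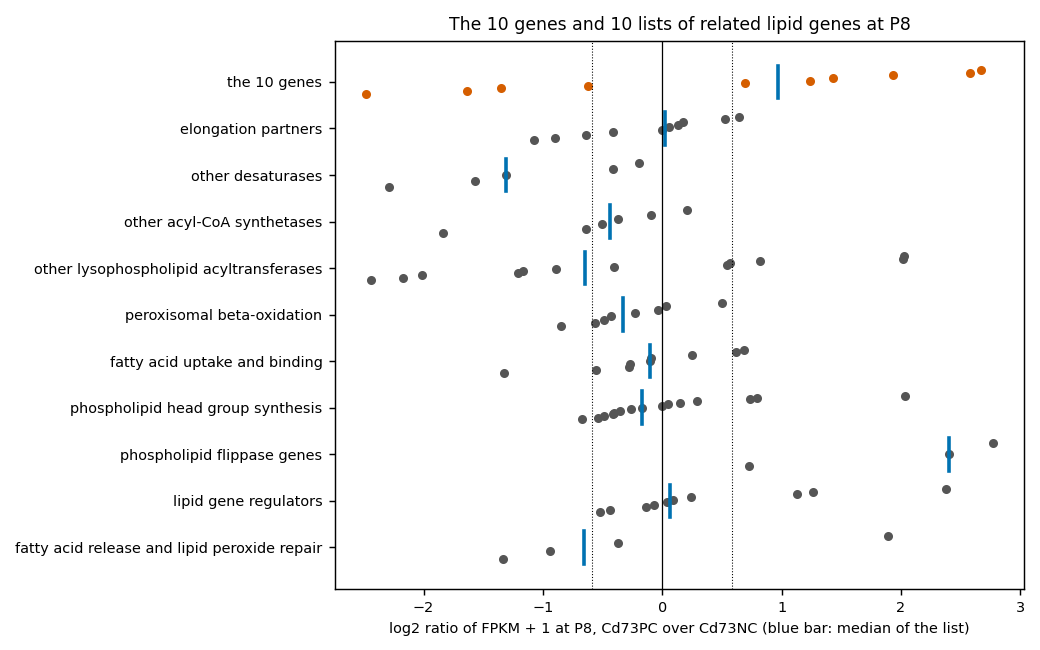
Log2 ratio of FPKM + 1 in Cd73PC over Cd73NC at P8 for the 10 genes (orange) and for each gene of 10 lists of related lipid genes (grey), with the median of each list as a blue bar and the 1.5-fold threshold dotted; each point compares 1 library with 1 library. The median of the other desaturases is at -1.31 and that of the flippase genes at 2.40, while the 10 genes lie on both sides of 0.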

How the data were processed

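RNA of 8 libraries, 1 per condition, was sequenced as 36-base single-end reads. The authors aligned the reads to mm9 with TopHat 2.0.8b (coverage search, at most 50 hits a read) and made FPKM values and bounds with Cufflinks 2.1.1 at its defaults, and the submitters' processing notes also name CASAVA 1.8.2 and bcl2fastq 1.8.4. Each deposited table held 23021 rows of FPKM with lower and upper bounds. Strand was not given in the sources used here, and a read with up to 50 hits can be shared among related genes.

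From these tables, 787 rows of small RNAs were left out by symbol and rows of the same symbol were summed, which left 21828 genes, 21808 of them with a value in every library. Rows with failed estimates (4 to 10 a library) were left out. Library pairs were compared by the log2 ratio of FPKM + 1 with a threshold of 1.5-fold and no test (Python 3.11.15, pandas 2.3.3, numpy 2.4.6). The alternatives were pseudocounts of 0.1 and none, a minimum FPKM of 1, upper-quartile and quantile scaling, a 2-fold threshold and bounds that do not overlap. The calling step was also run on simulated data with large planted changes and little noise. That run checks the code only and says nothing of variation between animals or sorts. The 10 genes, the lists and the markers were chosen with earlier results of these data known. All 10 genes were named, with the 3 genes most like each by Pearson's r among genes of FPKM at least 10. From the lists, genes were named that passed 1.5-fold the same way at P2, P5 and P8 (at most 4 a list), besides Acsl4, Scd2, Mfsd2a, Fads3, Elovl1 and Agpat3, with Adipor2 and Abcd3, chosen after their values were seen, as relatives of Adipor1 and Abcd2. Tecr and Ptpla were also named after their values were seen, as elongation genes that differed the other way from Hsd17b12. Protein sequences were not used here, and 1 rod marker and 1 gene of the likeness search are not reported here.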

Additional observations from a re-analysis of the deposited data

Results flagged for a closer look

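Several genes had changes of opposite sign in the 2 fractions between neighbouring stages. With 1 library per condition none of these differences was tested, and all are on the log2(FPKM + 1) scale. From P2 to P5, Elovl2 changed by -0.10 in Cd73PC and by 1.49 in Cd73NC, a difference of -1.59, and Abcd2 by -0.66 and 0.30, a difference of -0.96. From P5 to P8, Acsl1 changed by 0.26 in Cd73PC and -1.14 in Cd73NC (difference 1.40), Elovl4 by 0.24 and -0.68 (difference 0.92), and Lpcat1 by 0.23 and -0.50 (difference 0.73). Smaller differences of the same sign over that interval were those of Adipor1 (0.40), Acsl6 (0.29) and Fads2 (0.14). For each of these the bounds of P5 and P8 overlapped in Cd73NC, and for Fads2 in Cd73PC too, so those levels were not set apart. The log2 ratio of Cd73PC to Cd73NC was below 0 at P5 and above it at P2 and P8 for Lpcat1, with 0.73 between its highest and lowest value, and with upper-quartile scaling its P5 value was 0.08, above 0. The summed FPKM of the 6 rod markers in Cd73NC was 80.3, 1011 and 729 at P2, P5 and P8, and its part in these differences was not tested.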

How the results depend on the processing

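No paired analysis was possible because each condition was a single library with no replicate numbers to pair, and a fit with stage as the block, which would take the 3 ages as replicates of a fraction, was not run. Of 320 log2 ratios of single genes under the other pseudocounts and scalings, 319 kept their direction, and that of Lpcat1 at P5 turned from -0.04 to 0.08 with upper-quartile scaling. The 1.5-fold call changed in 15, among them Fads2 at P8 (log2 ratio -0.52 with upper-quartile and -0.53 with quantile scaling), which leaves 3 genes lower at P8 and at all 3 stages. As for counts, 115 of 128 recomputed counts stayed within 1.5 times the count given. The other 13 were these. The number of genes higher in E18 than in E15 was 2 with a pseudocount of 0.1, with none and with quantile scaling (Acsl1 and Elovl2). From P2 to P5 in Cd73PC, 1 gene (Acsl6) was higher with upper-quartile scaling, and 1 (Elovl5) was lower with quantile scaling and with a 2-fold threshold. From P5 to P8 in Cd73PC, 1 gene (Elovl5) was lower with a pseudocount of 0.1 and with none. In Cd73NC, 0 genes were lower from P2 to P5 with upper-quartile scaling, with quantile scaling or at 2-fold, and 2 (Acsl1 and Elovl2) were lower from P5 to P8 at 2-fold. At 2-fold 2 genes (Elovl5 and Abcd2) were lower in Cd73PC at all 3 stages. The counts over all 3 stages under other settings, and those without P5, were added after the data were seen. The cause of these changes was not tested, beyond the stricter threshold itself. A single library per condition and an unknown read total limit every value here.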
